A study of Rattus norvegicus with 2 samples.

Results

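Neuronal adhesion molecules hold an axon to its neighbours and organise the contact between a nerve terminal and its target, and 75 of the 25399 gene lines measured in stellate ganglion sympathetic neurons encode members of 16 such families. The members were taken by gene symbol alone: neurexins, neuroligins, LRRTM, SLITRK and FLRT proteins, latrophilins (Adgrl), teneurins (Tenm), LAR-type receptor phosphatases (Ptprd, Ptprf, Ptprs), contactins (Cntn), contactin-associated proteins (Cntnap), CADM and NCAM proteins, the L1 family, IgLON proteins, numbered cadherins and Thy1. The stellate ganglion holds the sympathetic neurons that innervate the heart. Its cells were dissociated with collagenase and trypsin and sequenced in droplets. The Wistar rat served as the normotensive strain and the spontaneously hypertensive rat (SHR) as the prehypertensive one, each with 1 library from male animals of 5 to 6 weeks of age. Each library is represented by 1 mean per gene over its sympathetic neuron cluster, given here as the mean count per 10000 counts of a neuron. With 1 library per strain there are no replicates and no test of the strains, so every strain difference below describes these 2 libraries and carries no error. The number of neurons, the counts per neuron and the number of animals behind each library are not given in the sources used here. A mean over the cluster cannot tell fewer neurons carrying a transcript from less transcript in each, nor a change in the share of its neuropeptide Y-expressing and non-expressing populations.

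Adhesion molecules of these families act in pairs across the gap between cells. At a synapse, neurexins and LAR-type phosphatases on the incoming terminal bind neuroligins, LRRTM and SLITRK proteins on the receiving cell, while latrophilins bind teneurins and FLRT proteins. The L1, NCAM, CADM, contactin, IgLON and cadherin families also guide axons, bundle them and bind them to glia. A sympathetic neuron stands on both sides, since it receives synapses from preganglionic axons in the ganglion and sends its own axon to the target organ.

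The neuron cluster held the transcripts of its label. All 14 sympathetic neuron markers listed were above 0 in both libraries, with summed levels of 206.3 per 10000 in Wistar and 227.8 in SHR. Of the 14, 8 were lower in SHR and 6 were higher. Among the lower ones, the catecholamine genes Ddc (ratio 0.488), Dbh (0.624) and Slc18a2 (0.679) were well below 1. Th (0.993) and Slc6a2 (0.960), also catecholamine genes, were nearly level. Among the higher ones were Hand2 (1.81) and Prph, Stmn2, Uchl1 and Snap25, and the last 4 hold most of the sum. Markers of satellite glia and Schwann cells were also present, and 9 of 9 listed were lower in SHR, with sums of 9.24 per 10000 in Wistar and 3.42 in SHR. Sox10 stood at 0.0914 and 0.0169 per 10000, and Kcnj10 was listed at 0.000598 in Wistar and at 0 in SHR. Fibroblast markers summed to 1.84 and 0.353 per 10000, immune markers to 1.10 and 0.396, and endothelial, mural and erythrocyte markers to at most 0.117 per 10000 in either library. Mitochondrially encoded transcripts took 1685 of every 10000 counts in Wistar and 1800 in SHR, and ribosomal protein transcripts 248.7 and 360.1. Some adhesion genes are also made by glia and fibroblasts, and the part of these transcripts in the differences below was not tested.

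The adhesion genes were mostly lower in the SHR library, both as deposited and on the 4 other scales tried. Summed over all 75 members, their level was 33.9 per 10000 in Wistar and 22.1 in SHR, an SHR/Wistar ratio of 0.653, whereas the total of all genes is 10000 in both by construction. A minimum average of 0.1 per 10000 over both libraries was passed by 34 members and by 7621 genes in all. Of the 34 members, 32 were lower in SHR (94.1%), where 65.6% of all genes past the minimum were lower. By a size rule that stands in for a test, a Wistar mean at least 1.5 times the SHR mean, 21 of the 34 members were lower (61.8%), against 26.5% of all genes. No member past the minimum was higher in SHR by 1.5 times, against 5.22% of all genes. The median SHR/Wistar ratio was 0.581 over the 34 members and 0.863 over all 7621 genes, and the median difference of log2(1 + mean) was -0.17 and -0.052. For 6 of the 34 members only the Wistar mean was above 0.1 per 10000, and these 6 were all lower by the size rule. Of 15 members with an average of at least 0.5 per 10000, 9 were lower by the size rule (60%). Of all 3198 genes at that level, 15.9% were. Each of the 15 was above 0.1 per 10000 in both libraries. Some of the 9, such as Tenm2 and Adgrl1, reached the 0.5 average through the Wistar mean alone, which favours low ratios.

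**Figure D1:**
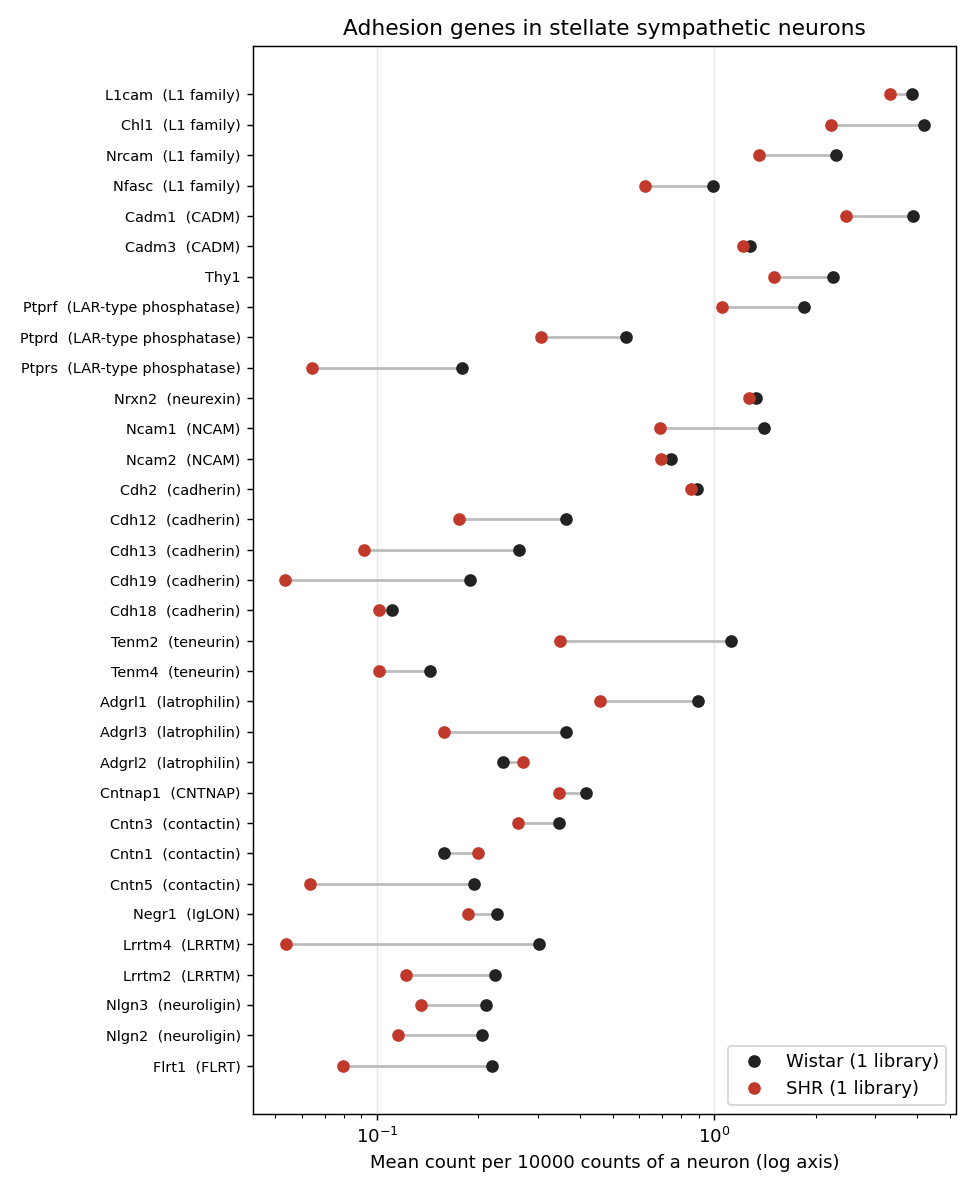
Mean count per 10000 (log axis) of 33 adhesion genes with an average of at least 0.1, 1 row per gene with its family, with the Wistar library in black and the SHR library in red, each point 1 library. The red point lies to the left of the black one in 31 rows, and to its right for Adgrl2 and Cntn1.

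Scale moved these counts. Since the median log2 ratio of all genes was -0.21, SHR against Wistar, the SHR library was also rescaled so that this median became 0. The size rule then gave 17.3% of all genes lower and 13.2% higher, in place of 26.5% and 5.22%. It gave 17 of 35 adhesion genes past the minimum lower and none higher. By any amount, 28 of the 35 were lower, beside 3882 of all 7766 genes past the minimum on that scale. Nrxn2, Cadm3, Ncam2, Cdh2 and Cdh18, whose ratios lay between 0.914 and 0.958, were higher in SHR on that scale.

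**Figure D2:**
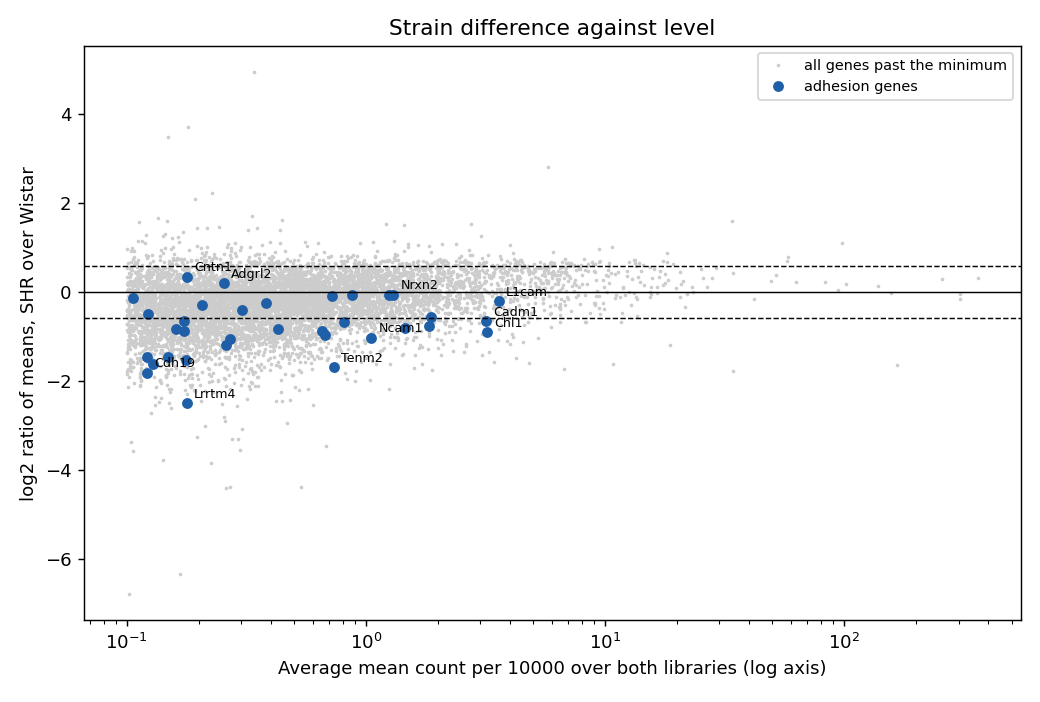
The log2 ratio of the means, SHR over Wistar, against the average mean count per 10000 (log axis), with all 7621 genes past the minimum in grey and the 34 adhesion genes in blue. The dashed lines mark 1.5 times higher and lower, and 21 blue points lie below the lower line and none above the upper one.

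The 5 members of highest average with a single start in the RefSeq promoter table of the GRCr8 rat assembly are shown by the 150 bases before that start, since 3 of them (Chl1, Ptprf and Tenm2) were lower in SHR by the size rule and 2 (Cadm3 and Ncam2) were nearly level. GRCr8 is not the Rnor_6.0 build of the deposited values, and counts taken at the 3′ end of a transcript do not show which start a neuron used. Capitals mark the GC box, the letters GGGCGG on either strand, which 26.0% of all 33469 promoters in the table hold in this window.
Chl1, chr4:137847745-137847894, strand plus: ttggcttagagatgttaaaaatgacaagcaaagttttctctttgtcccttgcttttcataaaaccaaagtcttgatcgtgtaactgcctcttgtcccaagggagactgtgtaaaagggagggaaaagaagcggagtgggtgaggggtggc
Ptprf, chr5:137095427-137095576, strand minus: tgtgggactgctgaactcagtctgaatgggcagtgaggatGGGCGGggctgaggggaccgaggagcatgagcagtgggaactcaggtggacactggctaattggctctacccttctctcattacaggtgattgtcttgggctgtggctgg
Tenm2, chr10:22120941-22121090, strand minus: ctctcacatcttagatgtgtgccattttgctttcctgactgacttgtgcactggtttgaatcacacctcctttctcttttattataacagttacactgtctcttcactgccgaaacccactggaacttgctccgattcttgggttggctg
Cadm3, chr13:88349719-88349868, strand minus: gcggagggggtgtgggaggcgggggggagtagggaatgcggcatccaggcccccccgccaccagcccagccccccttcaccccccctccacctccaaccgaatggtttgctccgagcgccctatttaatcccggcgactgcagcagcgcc
Ncam2, chr11:33591673-33591822, strand plus: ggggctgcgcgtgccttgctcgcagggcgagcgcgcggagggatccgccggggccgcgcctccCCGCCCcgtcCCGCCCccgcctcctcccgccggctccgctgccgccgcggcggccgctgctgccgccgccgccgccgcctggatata
The window of Ncam2 holds 28 CpG dinucleotides and 2 GC boxes, and that of Cadm3 holds 10 CpG dinucleotides and no GC box. The windows of Chl1, Ptprf and Tenm2 hold 2 CpG dinucleotides each, and of these only that of Ptprf holds a GC box. The table has an entry for 22 of the 34 members past the minimum, too few to compare the set with other genes.

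The L1 family had the highest summed level of the 16 families, 11.3 per 10000 in Wistar and 7.54 in SHR, which was 33.4% and 34.0% of all adhesion gene counts. L1cam, an immunoglobulin-domain protein that bundles axons, had Wistar and SHR means of 3.87 and 3.33 per 10000, a ratio of 0.861. Its close homologue Chl1, whose promoter window is shown above, led the adhesion genes in Wistar at 4.18 per 10000 but stood at 2.22 in SHR, a ratio of 0.532. Among all genes its rank went from 317 in Wistar to 699 in SHR. Nrcam, which clusters sodium channels at nodes of Ranvier together with neurofascin, was at 2.30 and 1.36 per 10000 (ratio 0.591). Nfasc, neurofascin itself, was at 0.991 and 0.623 per 10000 (ratio 0.629). L1cam was thus the 1 member of its family within 1.5 times, with Chl1, Nrcam and Nfasc beyond it.

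The CADM family of nectin-like molecules, which join axons to each other and to glia, summed to 5.24 per 10000 in Wistar and 3.78 in SHR. Cadm1, also called SynCAM1 for its part in synapse assembly, was at 3.90 and 2.47 per 10000, a ratio of 0.633. Cadm3 was nearly level at 1.28 and 1.22 per 10000 (ratio 0.954). Cadm2 and Cadm4 were under the minimum, at 0.0411 and 0.0252 per 10000 in Wistar and 0.0641 and 0.0307 in SHR, and both were listed higher in SHR. Cadm4 is known from Schwann cells, and the 9 listed markers of satellite glia and Schwann cells were all lower in SHR. The glial part of the Cadm4 means was not tested.

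The NCAM family was divided in the same manner. Ncam1, the neural cell adhesion molecule that can carry polysialic acid, was at 1.41 and 0.692 per 10000 (ratio 0.491). Ncam2, its paralogue, was at 0.744 and 0.698 per 10000 (ratio 0.938), so that the family members were nearly equal in the SHR library. Of the enzymes that add polysialic acid, St8sia4 was listed at 0.00107 and 0.00338 per 10000. Thy1, a small lipid-anchored surface protein of neurons that fibroblasts also carry, was at 2.25 and 1.51 per 10000, and its ratio of 0.671 was just short of the size rule.

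Among the IgLON proteins, lipid-anchored molecules of the neuronal surface, Negr1 alone passed the minimum. It was at 0.227 per 10000 in Wistar and 0.186 in SHR, a ratio of 0.817. Lsamp was at 0.0538 and 0.0340 per 10000, Ntm was listed at 0.00596 in Wistar and at 0 in SHR, and Opcml was listed at 0 in both libraries.

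**Figure D3:**
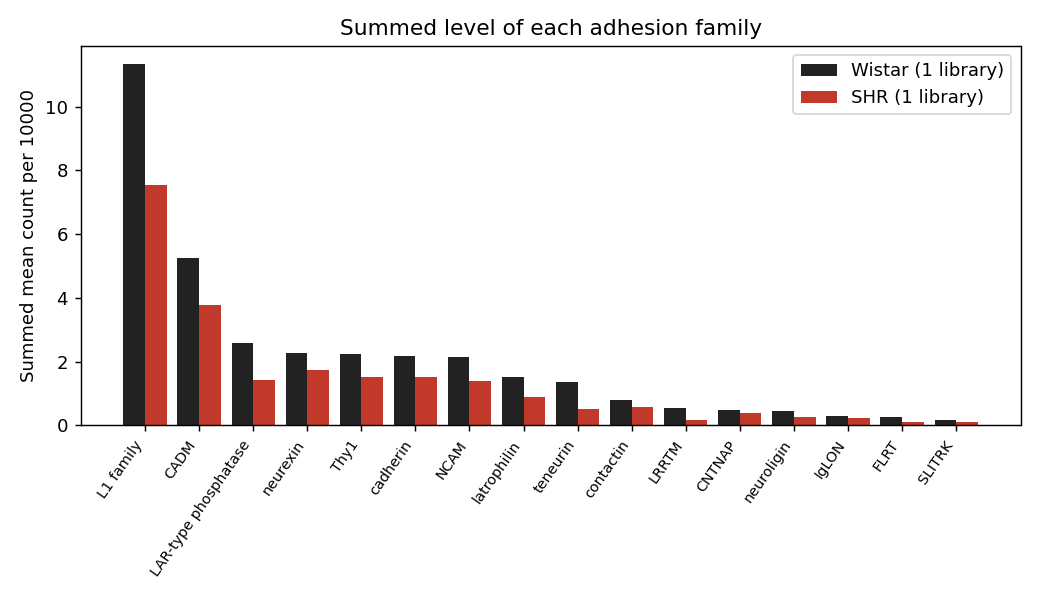
Summed mean count per 10000 of each of the 16 adhesion families over all listed members, with the Wistar library in black and the SHR library in red. The L1 family leads at 11.3 and 7.54 per 10000, and each family's SHR bar is the shorter one, as it is on the 4 other scales tried.

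Of the neurexins, receptors that stand on a presynaptic terminal, Nrxn2 was the leading one, at 1.33 and 1.27 per 10000 in the Wistar and SHR libraries, a ratio of 0.953. Nrxn3 was under the minimum, at 0.102 per 10000 in Wistar and 0.0109 in SHR. Nrxn2 was thus nearly level between the libraries and Nrxn3 was not.

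The LAR-type receptor phosphatases, presynaptic receptors with a phosphatase domain inside the cell, were each lower in SHR by the size rule. Ptprf (LAR) was at 1.85 per 10000 in Wistar and 1.06 in SHR, a ratio of 0.571. Ptprd was at 0.549 and 0.306 per 10000 (ratio 0.557) and Ptprs, a receptor for proteoglycans that restrains axon growth, at 0.178 and 0.0643 (ratio 0.361). The order Ptprf, Ptprd, Ptprs was found in both libraries.

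The ligands of these receptors on the receiving cell had low means. Nlgn3 was the leading neuroligin, at 0.211 per 10000 in Wistar and 0.135 in SHR (ratio 0.640), and Nlgn2, known from inhibitory synapses and also found at cholinergic ones, was at 0.206 and 0.115 (ratio 0.561). Nlgn1, known from excitatory synapses, was under the minimum at 0.0246 and 0.0180 per 10000. Lrrtm4, a leucine-rich repeat protein that binds neurexins and heparan sulphate proteoglycans, had the lowest ratio of the 34 members, 0.178, with means of 0.303 per 10000 in Wistar and 0.0538 in SHR. Lrrtm2 was at 0.224 and 0.122 per 10000, a ratio of 0.545, and Lrrtm3 at 0.0145 and 0.000712. The SLITRK proteins, ligands of LAR-type phosphatases, were all under the minimum, with Slitrk5 highest in Wistar at 0.0889 per 10000 and 0.0468 in SHR.

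The latrophilins, adhesion receptors coupled to G proteins, had members on both sides. Adgrl1 was at 0.893 per 10000 in Wistar and 0.459 in SHR (ratio 0.515) and Adgrl3 at 0.363 and 0.158 (ratio 0.435), whereas Adgrl2 was higher, at 0.237 and 0.272 (ratio 1.15). Adgrl4, a receptor of endothelial cells, was at 0.0171 and 0.00126 per 10000. Of their ligands, Tenm2, the teneurin that was first isolated as a latrophilin ligand, was at 1.12 and 0.348 per 10000, and its ratio of 0.310 was the lowest among the 15 members with an average of at least 0.5. Its rank among all genes went from 1537 to 3841. Tenm4, at 0.144 and 0.102 per 10000 (ratio 0.707), was within 1.5 times, and Tenm3 was under the minimum at 0.101 and 0.0515. Flrt1 was at 0.219 and 0.0793 per 10000 (ratio 0.363), Flrt3 at 0.0348 and 0.00977, and Flrt2 at 0.00872 and 0.0156. Summed by family, the SHR/Wistar ratio was lowest for the LRRTM proteins at 0.326, the teneurins at 0.366 and the FLRT proteins at 0.399. It was highest for the contactin-associated proteins at 0.767, the IgLON proteins at 0.765 and the neurexins at 0.764. Some sums at both ends of this ranking were low. They were 0.542 and 0.177 per 10000 in Wistar and SHR for LRRTM, 0.262 and 0.105 for FLRT, and 0.287 and 0.220 for IgLON.

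Contactins, lipid-anchored immunoglobulin proteins of the axon, and their transmembrane partners had 4 members past the minimum. Cntn3 was at 0.348 per 10000 in Wistar and 0.262 in SHR (ratio 0.753). Cntn1, the contactin of the paranodal junction, was higher in SHR, with 0.158 and 0.200 per 10000 (ratio 1.26). Its partner at that junction, Cntnap1 (Caspr), was at 0.416 and 0.347 per 10000 (ratio 0.836). Cntn5 was at 0.194 and 0.0631 per 10000, a ratio of 0.325, and was the 1 of the 4 beyond 1.5 times. Cntn2, Cntn4 and Cntn6 were under the minimum, with at most 0.0402 per 10000 in either library and ratios of 0.268, 1.17 and 0.263. Cntnap4 was at 0.0139 and 0.00695 per 10000. Cntnap5b and Cntnap5c are close copies, so their counts of at most 0.0573 per 10000 are uncertain.

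Of the 23 cadherins, calcium-dependent adhesion proteins, 16 were above 0 in at least 1 library and 5 passed the minimum. Cdh2, N-cadherin of neuronal junctions, led at 0.890 per 10000 in Wistar and 0.852 in SHR (ratio 0.958). Cdh12 was at 0.364 and 0.176 per 10000 (ratio 0.482), and Cdh18, also a cadherin of the nervous system, at 0.111 and 0.101 (ratio 0.914). Cdh13 (T-cadherin), which is anchored by a lipid, was at 0.264 and 0.0919 per 10000 (ratio 0.348). Cdh19, a cadherin of the Schwann cell lineage, was at 0.189 and 0.0535 per 10000, and its ratio of 0.284 stood beside a ratio of 0.185 for Sox10 among the glial markers. Cadherins known from other tissues were under the minimum, with Cdh6 of kidney highest at 0.114 and 0.0836 per 10000, Cdh15 of muscle at 0.0453 and 0.0475, Cdh1 of epithelium at 0.0411 and 0.0228, Cdh5 of endothelium at 0.0180 and 0.0116 per 10000, Cdh11 of mesenchyme at 0.0153 and 0.000677, and Cdh3, Cdh16 and Cdh23 listed at 0 in both libraries.

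Ratios within a library do not depend on how the library was scaled, so the leading pair of the L1, CADM and NCAM families was compared, a choice of families with at least 2 members at an average of 0.5 per 10000 or more and a comparison chosen after the values were seen. The gene with the lower SHR/Wistar ratio was put on top in each pair. That every pair ratio is lower in SHR follows from this choice, and only its size is informative. In the L1 family, Chl1 was 1.08 times L1cam in Wistar and 0.668 times in SHR. In the CADM family, Cadm1 was 3.05 times Cadm3 in Wistar and 2.02 times in SHR. In the NCAM family, Ncam1 was 1.90 times Ncam2 in Wistar and 0.993 times in SHR. The balance of these paralogues thus differed between the libraries as well as the summed level. As deposited, 1 member of each pair was within 1.5 times between the strains and the other was not. With the median ratio of all genes set to 1, Cadm1 also came within 1.5 times, with a change of -26.6%.

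**Figure D4:**
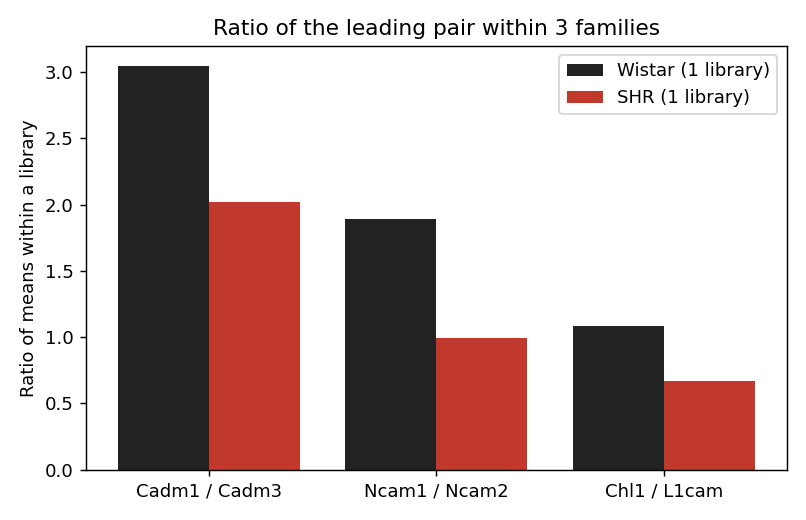
Ratio of the means of the leading pair within each library for 3 adhesion families, with Wistar in black and SHR in red, 1 library each. The gene with the lower SHR/Wistar ratio is on top in each pair, so the SHR bar is the lower one by construction. The ratio is 1.90 in Wistar and 0.993 in SHR for Ncam1 over Ncam2, and 1.08 and 0.668 for Chl1 over L1cam.

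The 41 members under the minimum added little. Of these, 9 were listed at 0 in both libraries, 28 were above 0 in both, 3 in the Wistar library only and 1 in the SHR library only. The 32 above 0 in at least 1 library summed to 1.17 per 10000 in Wistar and 0.687 in SHR, which was 3.44% and 3.10% of the adhesion gene counts. At the other end, L1cam, Chl1 and Cadm1 together gave 35.2% of the adhesion gene counts in Wistar and 36.2% in SHR.

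The partners that these molecules bind inside the cell, in the matrix or on other membranes were taken from a list by role, of which 114 of 117 genes have a line and 63 passed the minimum. Of the 63, 54 were lower in SHR (85.7%) and 28 were lower by the size rule (44.4%), again beside 65.6% and 26.5% of all genes, and between 44 and 54 of them were lower on the other scales. The median SHR/Wistar ratio was 0.715, between those of the adhesion genes and of all genes. The 44 of 63 came with the median ratio of all genes set to 1, where 3882 of all 7766 genes past the minimum were lower. The counts by role below are small. As deposited they stand beside the same 65.6% and 26.5% of all genes, and on the other scales beside the shares just given.

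Among the proteins that tie adhesion molecules to the cytoskeleton, 10 of 10 past the minimum were lower in SHR as deposited, 8 of 10 on 3 of the 4 other scales, and 6 were lower by the size rule. Ank2 and Ank3, the ankyrins that hold L1 family members in the axon membrane, were at 7.56 and 3.15 per 10000 in Wistar and 4.35 and 1.79 in SHR, with ratios of 0.575 and 0.568. The spectrin Sptbn4, radixin (Rdx) and doublecortin (Dcx) were also lower by the size rule, with ratios from 0.386 to 0.476. The spectrin Sptan1, which had the highest average over both libraries, just above Ank2, was at 6.95 and 4.97 per 10000 (ratio 0.715), and Epb41l3 and Msn (moesin) were nearly level, with ratios of 0.987 and 0.988 as deposited and between 1.02 and 1.14 on those 3 scales.

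Among the 11 presynaptic scaffold genes, 6 were lower by the size rule. These were the liprins Ppfia1, Ppfia2, Ppfia3 and Ppfia4, which bind LAR-type phosphatases, with Pick1 and Caskin1, and their ratios ran from 0.443 to 0.620. Sdcbp (syntenin), the leading gene of this role, was higher in SHR, with 2.88 and 3.42 per 10000. Of the 5 postsynaptic scaffold genes, Dlg1, Shank2 and Gphn (gephyrin) were lower by the size rule, with ratios from 0.502 to 0.566. Dlg4 (PSD-95), which binds neuroligins and led this role, was higher in SHR, with 0.738 and 0.970 per 10000.

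Of 5 secreted partners, Nxph4, a neurexophilin that binds neurexins, was at 0.509 per 10000 in Wistar and 0.154 in SHR (ratio 0.302). Lgi4, a protein that Schwann cells and satellite glia secrete, was at 0.242 and 0.0759 per 10000 (ratio 0.314), and Lgi3 led at 0.560 and 0.434. Of 24 other surface proteins, 8 were lower by the size rule, not far from the 26.5% of all genes. By the same rule 1 was higher, beside 5.22% of all genes. The lower ones were Alcam, at 6.19 and 2.84 per 10000, the protocadherins Pcdh7, Pcdh9, Pcdh10 and Pcdh17, and Mdga2, Ntrk3 and Ptprm, with ratios from 0.231 to 0.577. Pcdh19, also a protocadherin, was the 1 higher, at 0.164 per 10000 in Wistar and 0.297 in SHR (ratio 1.81). Basigin (Bsg) led this role and was nearly level at 11.5 and 10.5 per 10000 (ratio 0.914, or 1.06 with the median ratio of all genes set to 1). The catenins, which bind cadherins inside the cell, held Ctnna1 and Ctnnd1 with ratios of 0.617 and 0.622, while plakoglobin (Jup) led with an SHR mean of 1.66 per 10000 and a ratio of 1.10. The next role holds 4 genes for proteases, or protease subunits, that act on adhesion molecules or their stubs. Of these, Adam17 alone was lower by the size rule, at 0.160 and 0.0698 per 10000 (ratio 0.437). The presenilin Psen2 led at 1.15 and 0.985.

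**Figure D5:**
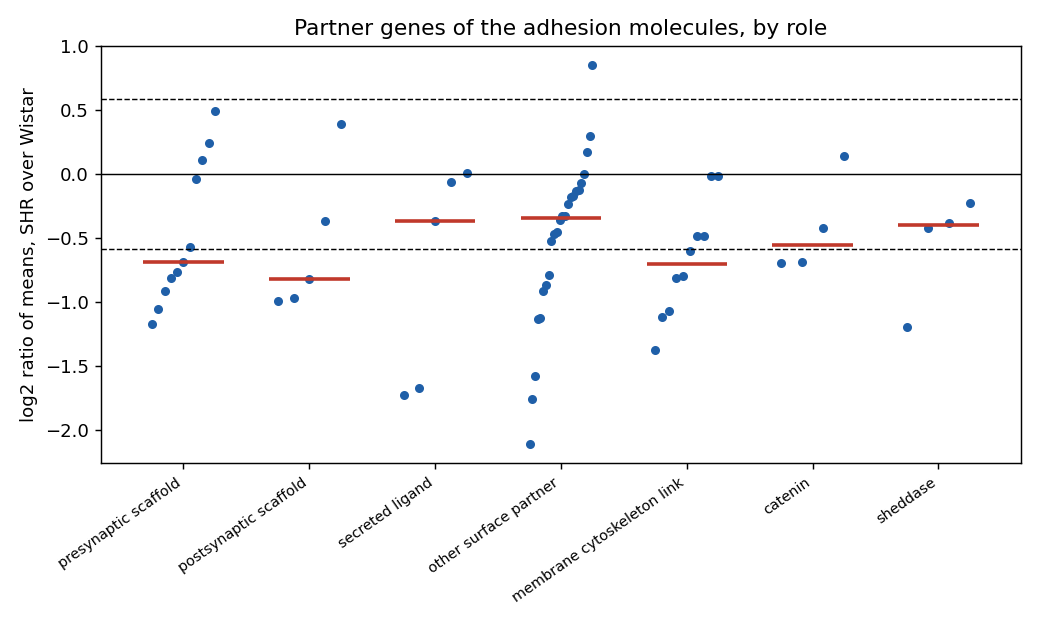
The log2 ratio of the means, SHR over Wistar, for the 63 partner genes past the minimum by role, with 1 point per gene, the median of each role as a red bar and dashed lines at 1.5 times lower and higher. All 10 cytoskeletal links lie below 0 on the deposited scale, with Epb41l3 and Msn next to 0 and above it on 3 of the 4 other scales, and Pcdh19 is the 1 point above the upper dashed line.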

How the data were processed

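Stellate ganglion cells of 1 Wistar and 1 SHR library were sequenced with 10x Genomics Single cell 3′ v3 chemistry. Per the labels, the submitters' processing notes name Cell Ranger 3.0.2, Seurat 3 and the build Rnor_6.0. The authors clustered the cells and deposited a natural log value for each gene, which is ln(1 + m) with m the count per 10000 averaged over the sympathetic neurons of a library. Filters on cells, doublet treatment and depth are not given in the sources used here, so neither counting error nor detection limits can be stated. Because 1 tagged 3′ end is counted per captured transcript, levels were not divided by transcript length. Free or glial RNA in a neuron's droplet is part of these means.

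The deposited values were converted back with Python 3.11.15, NumPy 2.4.6 and pandas 2.3.3. Of 25399 lines, 4 with repeated names were left out, which leaves 25395 genes, and names turned into dates were kept as they stand. Counts of genes are over those whose 2 library means averaged 0.1 per 10000 or more. A difference of at least 1.5 times between the means stood in for a test. The calculations were checked on simulated data. No comparison between the strains was tested, as the libraries are single. The authors' deposited comparison holds fold changes, p-values and 2 columns of shares of cells that carry no strain name. None of its columns was used. Every member past the minimum was named, except that a few genes are not reported here. Of the partner list, the genes past 1.5 times and the leading gene of each role were named, with Epb41l3, Msn, St8sia4 and other genes under the minimum added after their values were seen. The members, the lists and the size rule were chosen with earlier results of these data known. Lists of marker and partner genes were written by hand. Promoter sequences and gene order are from RefSeq (GRCr8), matched by symbol for all 75 members in the gene table. Alternatives were other scalings, minimums, pseudocounts and sizes of difference.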

Additional observations from a re-analysis of the deposited data

How the results depend on the processing

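The number of adhesion genes lower in SHR was 32 of 34, where 65.6% of all genes were lower. It was 15 of 15 with a minimum of 0.5 per 10000, where 54.1% of all genes were lower. It was 57 of 66 with none, for which the share of all genes lower is not given here. The number lower by 1.5 times, 21, was 9 (60% of members, 15.9% of all genes) and 42 (63.6% and 41.8%) under these minimums, 10 (29.4% and 11.3%) when 2 times was required and 11 (32.4% and 11.8%) when a log2(1 + mean) difference of 0.25 was required. The number higher by 1.5 times, 0, was 1 with a minimum of 0.05 per 10000 (5.49% of all genes), 3 with none (12.4%) and 1 when an excess of 25% was enough (15.5%). The median difference of log2(1 + mean), -0.17, was -0.37 with a minimum of 0.5, -0.040 with none, -0.62 and -0.020 with pseudocounts of 0.1 and 10, and -0.78 with no pseudocount. The partner genes lower by 1.5 times, 28 of 63, were 7 of 27 with a minimum of 0.5, 53 of 110 with none, 13 at 2 times and 17 at the log2 difference of 0.25. These moves follow from the genes, sizes or pseudocounts admitted. The summed level changed by -34.7% and by between -24.4% and -37.4% under the alternatives. Of 136 recalculated changes of single members, 116 stayed within 1.5 times of the value reported and 20 did not, all in members within 1.5 times between the strains. Setting the median ratio of all genes to 1 turned 5 of these to higher in SHR, with changes of 10.6% for Cadm3, 5.91% for Cdh18, 10.96% for Cdh2, 8.65% for Ncam2 and 10.4% for Nrxn2. No paired analysis was possible because the strains are represented by a single library apiece. Depth is unknown, and members of low mean rest on the fewest counts.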

Other observations

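Several adhesion genes lie next to each other in the rat genome. In the gene order of GRCr8, 14 pairs of members are direct neighbours among protein-coding genes. Cntn3, Chl1, Cntn6 and Cntn4 follow each other in that order, with Wistar means of 0.348, 4.18, 0.0388 and 0.0343 per 10000 and SHR means of 0.262, 2.22, 0.0102 and 0.0402. Chl1 was thus far above its contactin neighbours in both libraries. Nfasc, at 0.991 and 0.623 per 10000, lies beside Cntn2, at 0.0392 and 0.0105. Other neighbours had like levels in Wistar, such as Cdh5 and Cdh11 at 0.0180 and 0.0153 per 10000. Cdh10, Cdh12 and Cdh18 also follow each other, and Cdh12 led them in both libraries at 0.364 and 0.176 per 10000. Cdh19, at 0.189 and 0.0535 per 10000, lies beside Cdh7, which was listed at 0 in both libraries. Slitrk6 was listed at 0 in both libraries between Slitrk1, at 0.0729 and 0.0492 per 10000, and Slitrk5, at 0.0889 and 0.0468.

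Nrxn3 and Lrrtm4 had the lowest SHR/Wistar ratios, 0.107 and 0.178, among members with a Wistar mean of at least 0.1 per 10000. Lrrtm4 is a neurexin ligand. Both passed that mean through Wistar alone, a choice that favours low ratios, and the SHR mean of Lrrtm4 was 0.0538 per 10000. Nrxn3 is under the minimum average, so that its SHR mean of 0.0109 per 10000 rests on few counts at an unknown depth.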
